A study of Mus musculus with 4 samples.

Results

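Actin and the proteins that set its length, branching and attachment in neurons were followed through the 3′ ends of their mRNAs in the CA1 neuropil of the mouse hippocampus. Members were chosen by gene name alone: Actb, the thymosins, profilins, cofilins, the Arp2/3 complex with its WAVE activators, capping proteins, tropomyosins, tropomodulins, alpha-actinins, spectrins, adducins and the spine scaffolds Ppp1r9a and Ppp1r9b. The rule took 77 of the 9297 polyA sites in the table and 45 of its 7202 gene names. These sites held 578 of 34672 tags.

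The samples were 4 replicate libraries of a single group, labelled with the genotype Camk2a-Cre x Pabpc1- cTag, the strain C57BL/6, CA1 neuropil as the region and Pabpc1 as the labelled protein. cTag-PAPERCLIP recovers RNA fragments crosslinked by ultraviolet light to the poly(A)-binding protein Pabpc1, which carries GFP only where Cre has acted. Camk2a drives Cre mainly in excitatory neurons of the forebrain, and each library came from dissected slices of several pooled mice. Age and sex are not in the labels, and no cell body sample or untagged control was analysed here, so no comparison of groups was possible and each value below describes neuropil alone.

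Actin monomers add to the barbed ends of filaments and leave from the pointed ends. Thymosins hold monomers in reserve, profilins hand them to growing ends, cofilins sever old filaments, and the Arp2/3 complex starts branches when WAVE proteins activate it. In excitatory neurons a dense branched meshwork fills the dendritic spine, spectrins and adducins line the membrane, and Actb is among the first mRNAs known to be transported into neurites.

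The finding rests on where the tags ended, so the sequence around the most-tagged site of the main members is given below, read 5′ to 3′ on the RNA strand from mm10 (GRCm38). Each run covers 30 bases with the listed position at base 16. Capitals mark a polyA signal (the main signals AATAAA or ATTAAA, else the variant CATAAA), and for the proximal Actb site, which has neither main signal within 50 bases, the motif ACACCC. Both Actb sites are shown because their use differed between replicates.
Tmsb4x, chrX:167207103-167207132, minus strand: cacaatttttttaatatgcaAATAAAgttt
Pfn1, chr11:70651860-70651889, minus strand: ttttttttttttttttctgAATAAAaaaag
Ppp1r9b, chr11:95006860-95006889, plus strand: ccctctgtcaggtcgtcccCATAAAagcag
Actb distal, chr5:142903127-142903156, minus strand: acttgagaccAATAAAagtgcacaccttac
Actb proximal, chr5:142903755-142903784, minus strand: gagctgcgttttACACCCtttctttgacaa
Sptbn1, chr11:30099400-30099429, minus strand: aatatatgctatgtcATTAAAtgcttttaa
Cyfip2, chr11:46193865-46193894, minus strand: cattttcatctccATTAAAactgcttccaa
Wasf1, chr10:40938531-40938560, plus strand: attacaatctgatgtAATAAAcggttcatt
Baiap2, chr11:120002582-120002611, plus strand: actgcggtcaactgttggAATAAAggcttt
Arpc2, chr1:74268171-74268200, plus strand: acggttggggtcattAATAAAgaaaatctt

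Replicates 1 to 4 held 16017, 6609, 5947 and 6099 tags. A single site named Hdac8 took 25.2% of replicate 1, but only 0.0151% to 2.25% of each other replicate. It lowers every other share in replicate 1. Where no tag was seen, the share could still reach the equivalent of 3 tags, or 0.0187%, 0.0454%, 0.0504% and 0.0492% in replicates 1 to 4. Intervals, limits and tests allow for counting error alone, since PCR can copy one molecule into several tags. In tissue samples, fewer cells of a type and less RNA per cell cannot be told apart.

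Actin regulator sites took 1.19%, 2.54%, 1.61% and 2.03% of the tags in replicates 1 to 4, from 190, 168, 96 and 124 tags. The mean was 1.84% ± 0.580 (SD, n = 4), and replicate 2 was the highest. The tags were concentrated in few genes, since Tmsb4x, Ppp1r9b, Pfn1 and Actb together held 336 of the 578 tags (58.1%). Outside the 6 genes with at least 20 tags, the remaining genes made up 0.425%, 0.484%, 0.773% and 0.787% of replicates 1 to 4, and there replicates 3 and 4 were the high ones.

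The family was detected more often per gene than the table as a whole. Its median was 5 tags per gene, against 2 over all gene names, and 17 of its 45 genes (37.8%) had tags in all 4 replicates, against 7.76% of all gene names. Of its 77 sites, 42 had tags in more than 1 replicate (54.5%, 95% Wilson interval 43.5 to 65.2), against 34.2% of all sites. Those 42 sites carried 93.3% of the family's tags. The other 35 sites were seen in 1 replicate, 33 of them with a single tag, which is too few to place a 3′ end firmly. These are descriptions without a test, and a gene or site with more tags can be found in more replicates.

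**Figure D1:**
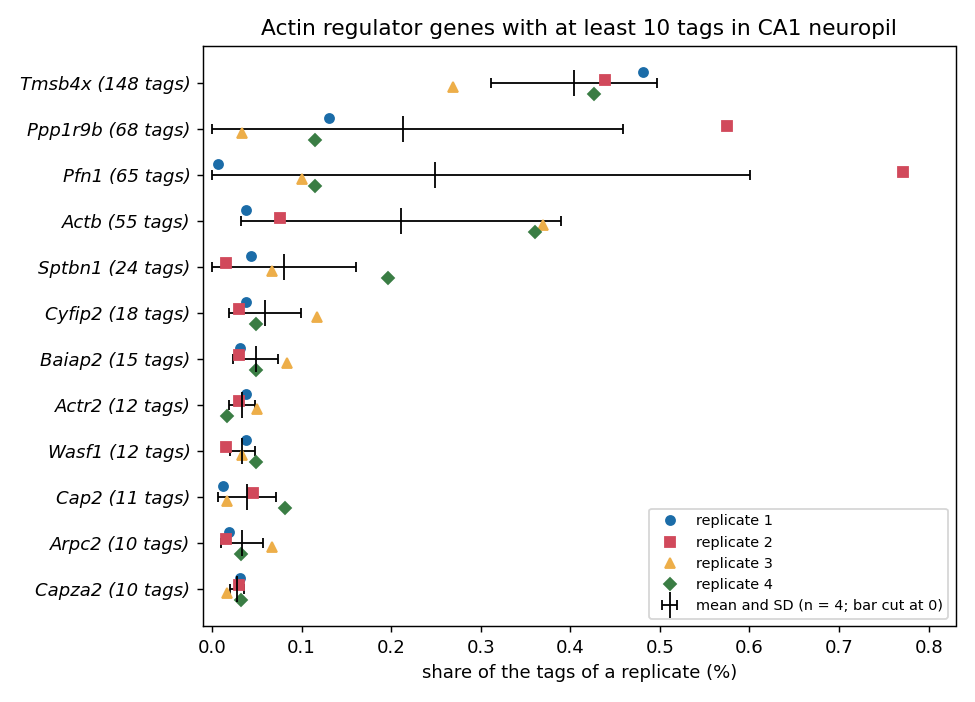
Share of the tags of each replicate (%, horizontal axis) for 12 of the 13 actin regulator genes with at least 10 tags; symbols are the 4 replicates, the vertical tick is the mean and the bar its SD. Tmsb4x lies between 0.269% and 0.481% in every replicate, Pfn1 and Ppp1r9b are high in replicate 2 only, and Actb is high in replicates 3 and 4.

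Monomer binding proteins held 249 tags over 9 genes, the most of any role, at 0.775% ± 0.390 (SD, n = 4) of the tags. Tmsb4x, thymosin beta-4, which keeps actin monomers from polymerizing, was the most-tagged member and ranked 9 among all gene names by tags summed over the replicates, of which replicate 1 gave the most. It had 77, 29, 16 and 26 tags in replicates 1 to 4, which is 0.481%, 0.439%, 0.269% and 0.426%. Replicate 3 was the lowest, and the mean was 0.404% ± 0.0928 (SD, n = 4). All of its tags fell on a single site on the X chromosome, 384 bases past the stop codon and 22 bases upstream of an annotated transcript end. Tmsb10, the second thymosin, had 2, 1, 1 and 1 tags at its single site.

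Pfn1, profilin 1, gave the most uneven counts among members with at least 20 tags. Its only site, 250 bases past the stop codon, had 1, 51, 6 and 7 tags in replicates 1 to 4. Replicate 2 thus held 78.5% of the tags of the gene. The share was 0.248% ± 0.352 (SD, n = 4) over all replicates and 0.0740% without replicate 2. Pfn2, the neuronal profilin, had 3 tags each in replicates 1 and 4 and none in the others. Of those in replicate 1, 1 lay 124.1 kb past the gene.

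The cyclase-associated proteins, which recharge monomers after filaments come apart, were the next members. Cap2 had 2, 3, 1 and 5 tags and Cap1 had 0, 2, 3 and 3 tags. Counts for the cofilin group were lower: Cfl2 had 4 tags, of which 1 lay 41.7 kb past the gene, and Cfl1 and Dstn (destrin) had 1 tag each, the Dstn tag 58.9 kb past its gene. The enzymes that switch cofilin off and on were close to the limit of detection, with 1 tag for Limk2 and 1 for Ssh1.

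Actb was the only actin among the members. It had 6, 5, 22 and 22 tags in replicates 1 to 4, and its share was 0.0375%, 0.0757%, 0.370% and 0.361%, with a mean of 0.211% ± 0.179 (SD, n = 4). Replicates 3 and 4 were close to each other and well above replicates 1 and 2. Of the 55 tags, 34 fell on a site 29 bases past the stop codon (proximal), 17 on a site 657 bases past it (distal) and 4 on a site between them, 188 bases past it.

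The distal Actb site behaved differently from the proximal one. The distal site, 26 bases upstream of the annotated end of the gene, had 5, 5, 5 and 2 tags. The proximal site had 1, 0, 17 and 16 tags, so the high counts of replicates 3 and 4 came from it. Among tags at these 2 sites, the proximal share was 16.7%, 0%, 77.3% and 88.9%. The site at 188 bases had 4 tags, all in replicate 4.

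Some properties of the proximal Actb site were measured, and each was also found at other family sites. It lies 268 bases upstream of the nearest annotated transcript end and has no AATAAA or ATTAAA within 50 bases, as is true of 22 of the 77 family sites. The 100 bases around it match 3 other places in the genome, the best at 95% identity. The same holds for the site at 188 bases (best 95.4%), while the distal site has no such copy. Of the sites printed above, only the proximal Actb site has such copies or lies so far from an annotated transcript end. In the window 15 to 35 bases downstream, 10 of 21 bases are A. At least as many are found at 19.6% of all sites, and the median is 6. The part of copies and of A-rich sequence in the counts was not tested.

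**Figure D2:**
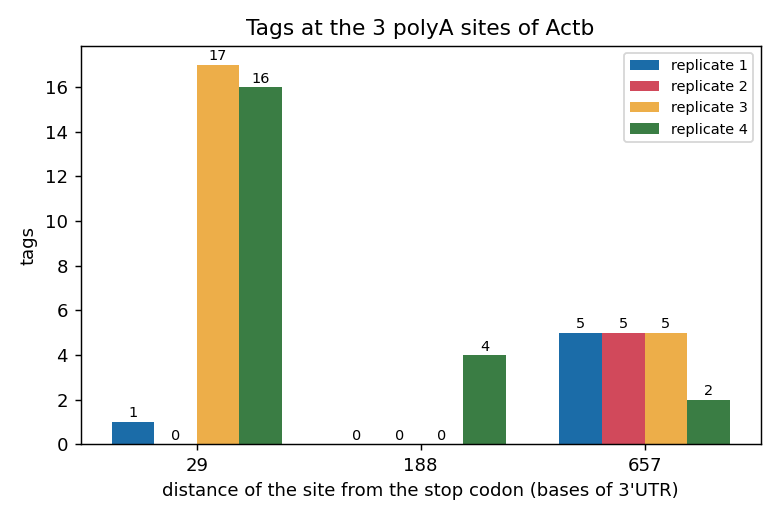
Tags (vertical axis) at the 3 polyA sites of Actb in each replicate, placed by their distance from the stop codon in bases of 3′UTR. The site at 657 bases has 2 to 5 tags in every replicate, whereas the site at 29 bases has 17 and 16 tags in replicates 3 and 4 and at most 1 in replicates 1 and 2.

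Crosslinkers and spine scaffolds held 79 tags over 3 genes. Ppp1r9b, spinophilin, which binds filaments and anchors protein phosphatase 1 in spines, had 21, 38, 2 and 7 tags in replicates 1 to 4. That is 0.131%, 0.575%, 0.0336% and 0.115%, a mean of 0.214% ± 0.245 (SD, n = 4) that fell to 0.0932% without replicate 2. Its main site took 64 of the 68 tags. It lies 1517 bases past the stop codon and 24 bases upstream of the annotated end, with CATAAA starting 4 bases downstream of the listed position and neither main signal within 50 bases.

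Ppp1r9a, neurabin, the close relative of spinophilin, had 3, 1, 2 and 1 tags, of which 6 fell on a site 5890 bases past the stop codon, which are under the smallest number of tags tested for spread between replicates. Actn1, an alpha-actinin that bundles filaments, had 4 tags over 3 sites.

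The Arp2/3 complex and its activators held 89 tags over 15 genes, 0.280% ± 0.120 (SD, n = 4), and no gene of the group reached 20 tags. Cyfip2, a subunit of the WAVE regulatory complex, led with 6, 2, 7 and 3 tags. Baiap2 (IRSp53, which links Rac to WAVE) had 5, 2, 5 and 3, and Wasf1 (WAVE1) had 6, 1, 2 and 3. Of the Wasf1 tags in replicate 1, 1 lay 26.5 kb past the gene. Each of the 3 genes was seen in every replicate.

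The core subunits of Arp2/3 had between 1 and 12 tags. Actr2 (Arp2) had 6, 2, 3 and 1 tags, and Arpc2 had 3, 1, 4 and 2. Actr3 (Arp3), Arpc1b and Arpc5 had a single tag each, Arpc3 had 2 and Arpc1a had 3. Arpc5l needs care: 5 of its 7 tags fell on a site 204.5 kb past the gene whose surrounding sequence has at least 3814 near-identical copies, and only 1 tag fell in its 3′UTR.

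Filament end and side binders held 31 tags over 8 genes at 0.0812%, 0.0757%, 0.118% and 0.0984% in replicates 1 to 4. The mean was 0.0932% ± 0.0190 (SD, n = 4), the smallest SD relative to the mean among the 8 roles. Capza2, which caps barbed ends, had 5, 2, 1 and 2 tags over 4 sites. Enah, which protects growing ends from capping, and Tmod2, the neuronal cap of pointed ends, each had 2, 1, 1 and 1. Their most distal sites gave the longest 3′UTRs of the family, 9445 bases for Enah and 8441 bases for Tmod2. Tpm1, Tpm2 and Tpm4 had 3, 1 and 2 tags, Capzb had 4 and Tmod3 had 1.

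The membrane skeleton held 59 tags over 4 genes. Sptbn1, a beta spectrin that ties actin rings to the membrane, had 7, 1, 4 and 12 tags and was highest in replicate 4, and its mean share of 0.0807% ± 0.0802 (SD, n = 4) fell to 0.0420% without that replicate. Add2, the brain adducin that caps filaments under the membrane, had 1, 4, 1 and 3 tags at a site 5606 bases past the stop codon. Add3 had 2 tags.

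Actin-related proteins of other complexes, which serve dynactin and chromatin rather than spines, held 14 tags over 3 genes. Actr1b had 3, 1, 0 and 2 tags, Actr10 had 3, 0, 0 and 3, and Actr6 had 2 tags in all. Wasf3, Wasl, Cyfip1 and Actr3b, the remaining members with tags, had 1, 2, 1 and 3. Of the Actr3b tags, 1 lay 225.5 kb past the gene. Tag counts mark 3′ ends and are not divided by transcript length, so these orders describe tags per gene, not amounts of protein.

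**Figure D3:**
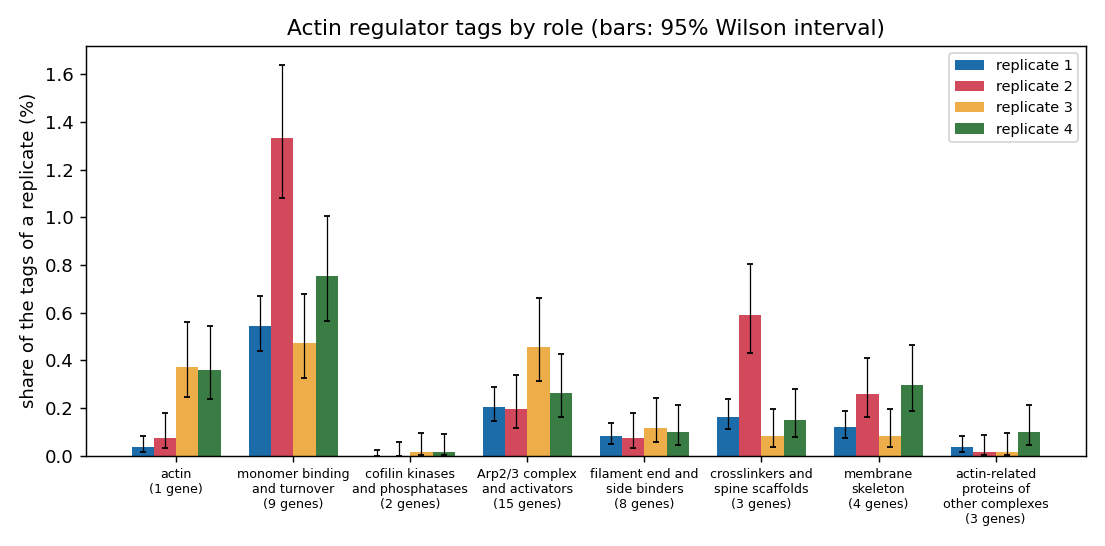
Share of the tags of each replicate (%, vertical axis) for the 8 roles; bars are the 4 replicates and whiskers are 95% Wilson intervals. Monomer binding proteins reach 1.33% in replicate 2 and crosslinkers and spine scaffolds 0.590% there, while filament end and side binders stay between 0.0757% and 0.118%.

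The next comparison asked whether each gene's share differed between replicates by more than the counting of single tags allows. An exact multinomial test against the library totals was run on all 211 genes with at least 20 tags (a chi-square test above 200 tags), with Benjamini-Hochberg adjustment over all of them. The share differed at an adjusted p under 0.05 for 147 of the 211 genes (69.7%) and for 5 of the 6 actin regulators, so uneven shares were common among genes of this depth. With a minimum of 10 tags, 215 of 533 genes (40.3%) and 5 of 13 actin regulators were called, and none of the members with 10 to 19 tags passed. The adjusted p was 6.79e-26 for Pfn1, 2.80e-10 for Ppp1r9b, 2.90e-10 for Actb and 0.00234 for Sptbn1. Without replicate 2 the adjusted p of Ppp1r9b was 0.166.

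Tmsb4x was the member whose share did not pass (adjusted p = 0.220). Its chi-square per degree of freedom, which is near 1 when replicates differ by counting noise only, was 1.53. It ranked 27 from the smallest among all 211 genes tested (median 4.89), of which 64 were not called, and 4 among the 56 genes with at least 50 tags. At a minimum of 100 tags, chosen after seeing the data, it was the smallest of 19 values, and the other 18 genes were called. The call depended on the denominator. With the most-tagged site of the table left out of the library totals, the shares of Tmsb4x were 0.642%, 0.439%, 0.275% and 0.433% and the adjusted p was 0.0128, and with edgeR TMM factors it was 2.66e-06.

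**Figure D4:**
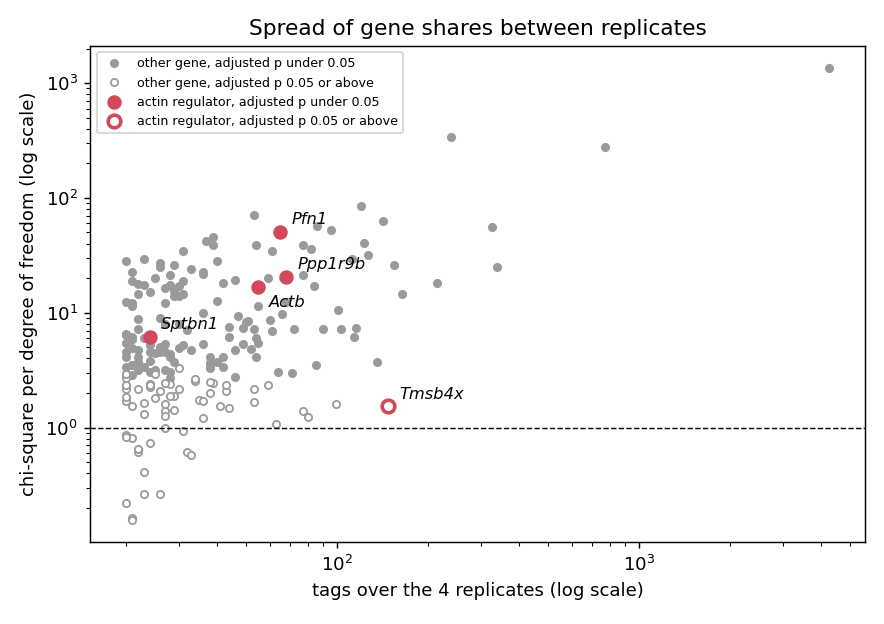
Chi-square per degree of freedom of each gene's tags over the replicates (vertical axis, log scale) against its tags (horizontal axis, log scale) for genes with at least 20 tags; filled points have an adjusted p under 0.05 and the dashed line is the value for counting noise. Tmsb4x lies near the line at 1.53, while Pfn1 at 50.8, Ppp1r9b at 20.6 and Actb at 16.7 lie above the median of 4.89.

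Markers of other cells moved in some of the same replicates. Oligodendrocyte markers (7 of 7 with tags) took 0.287%, 0.560%, 0.185% and 0.131% of replicates 1 to 4 and were highest in replicate 2, as were Pfn1 and Ppp1r9b. Mbp, a myelin protein gene, had 20, 27, 6 and 2 tags. Interneuron markers (4 of 7 with tags, none for Gad2, Slc32a1 and Vip) took 0.0499%, 0.0303%, 0.135% and 0.246%, and most of these tags came from Npy with 4, 0, 6 and 12. Of the other interneuron markers, Gad1 had 3, 1, 2 and 2 tags, Sst had 1, 0, 0 and 1 and Pvalb had 0, 1, 0 and 0. Astrocyte markers (8 of 8) took 0.0757% to 0.243% and were highest in replicate 1. Microglia markers (4 of 10, with Cx3cr1, P2ry12, Csf1r, Tmem119, Aif1 and C1qb at 0) took at most 0.0605%, and endothelial markers (3 of 6, with Cldn5, Pecam1 and Kdr at 0) at most 0.0454%. Their part in the actin regulator counts was not tested. Pyramidal neuron markers (8 of 10) took 0.292% ± 0.0641 (SD, n = 4), with Nrgn at 32, 6, 6 and 9 tags, and among the sites analysed here none carried the names Camk2a or Slc17a7.

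Most family sites lay in annotated 3′UTRs. On the strand of the site, GENCODE vM21 placed 66 of the 77 in a 3′UTR (85.7%), with 97.1% of the tags. The other sites were 9 between genes with 15 tags, 1 in a coding exon of Arpc2 and 1 in an intron of Ppp1r9a. Over all sites 76.5% lay in a 3′UTR, with 70.2% of tags. The listed position stood 15 to 35 bases upstream of an annotated transcript end for 39 of the 77 sites (50.6%), which held 80.8% of the tags. From the stop codon to the site the distance ran from 29 bases at the proximal Actb site to 9445 at Enah, with a median of 855.

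Gene names in the table did not always match the annotation. A further 10 sites with 34 tags lay in the 3′UTR of a gene that the rule would take but carried another name, often that of a microRNA. The largest was Dbn1, drebrin, a side binder that marks spine actin, whose site was named Mir6944 and had 3, 5, 1 and 2 tags. Sptan1, the alpha spectrin, had 3, 2, 3 and 1 tags under the name Mir6997. Actg1, the second cytoplasmic actin, had 2, 2, 0 and 0 under Mir6935, and Evl had 1, 1, 0 and 1 under Mir342. Add1, Wasf2, Actr8, Arpc4, Sptbn4 and Tpm3-rs7 had 1 or 2 tags each, and the Arpc4 site also lies in Ttll3. A missing name in the table is therefore not a missing 3′ end. Of 77 protein-coding vM21 genes that match the rule, 22 had a site under neither name, among them Actn2, Actn4, Capza1, Limk1, Tmod1 and Tpm3.

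Copies elsewhere in the genome touched a small set of members. Of the 77 sites, 11 with 53 tags had another place in the genome at 90% identity or more over at least 80% of the surrounding 100 bases. They included 2 of the 3 Actb sites, and sites named for Arpc5l, Wasf1, Actr3b, Cfl2 and Pfn2 that lay over 10 kb past the gene. How tags matching several places were handled is not given in the sources used here, so counts at these sites are uncertain.

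Whether replicates used the sites of a gene in the same proportion was tested by Fisher's exact test, two-sided, on tags of the most-tagged site against the other recurrent sites in each replicate. Of 50 genes with enough tags in the whole table, 13 differed (26%), and of the 3 actin regulators tested Actb was the one that did (adjusted p = 0.000519). With a minimum of 10 tags, 11 of 105 genes (10.5%) differed, and Actb was the 1 of 7 actin regulators that did. It remained under 0.05 when any replicate was left out, with an adjusted p of 0.000295 to 0.0277. For Ppp1r9b the 2 recurrent sites had 19 and 2, 36 and 1, 2 and 0, and 7 and 0 tags in replicates 1 to 4 (adjusted p = 0.787).

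Among the 9 members with 2 recurrent sites, tags at the distal and the proximal one were summed over replicates, and the intervals allow only for the counting of these sums. Ppp1r9b stood at 64 distal and 3 proximal tags (95.5%, 95% Wilson interval 87.6 to 98.5) and Cyfip2 at 16 and 2 (88.9%, 67.2 to 96.9). Actb stood at 17 and 34 (33.3%), but this sum joins replicates that differed. Its distal share was 83.3%, 100%, 22.7% and 11.1% in replicates 1 to 4, so it was mostly distal in replicates 1 and 2 and mostly proximal in replicates 3 and 4. Baiap2 (10 and 5), Capza2 (6 and 2), Cap2 (6 and 4), Actr2 (5 and 7) and Actr1b (2 and 4) had intervals that included 50%.

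Summed over these 9 genes, the distal share was 61.3%, 77.3%, 46.3% and 50% in replicates 1 to 4, a mean of 58.7% ± 13.9 (SD, n = 4). Over all 215 genes with such sites it was 61.7% ± 5.74 (SD, n = 4). The family value turned on single genes, since it was 71.8% ± 8.88 without Actb and 45.4% ± 4.94 without Ppp1r9b. It was 35.3% without replicate 2, where 5 genes still qualified.

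**Figure D5:**
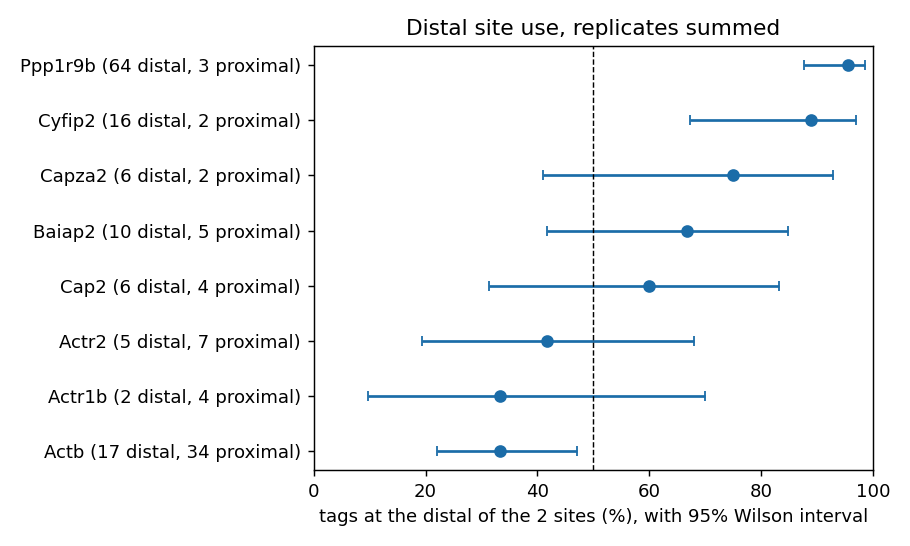
Percent of tags at the distal of the 2 recurrent sites (horizontal axis), replicates summed, for 8 of the 9 actin regulator genes with such sites; whiskers are 95% Wilson intervals and the dashed line is 50%. Ppp1r9b (95.5%) and Cyfip2 (88.9%) lie above 50%, and Actb (33.3%) lies below it only through replicates 3 and 4, since it was 83.3% and 100% distal in replicates 1 and 2.

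AATAAA or ATTAAA began within 50 bases on either side of the listed position at 55 of the 77 sites (71.4%, 95% Wilson interval 60.5 to 80.3), against 78.2% of all sites, whose share lies inside that interval. In the runs printed above, the signal begins between 5 bases upstream and 5 bases downstream of the listed position. A signal lying wholly upstream of that position, within 50 bases, was found at 22.1% of family sites and 27.7% of all sites. With single-base variants added, 12 hexamers in all, the shares on either side were 92.2% and 92.8%. In the 400 bases upstream, on the RNA strand, ACACCC occurred at 6.49% of family sites and 8.44% of all sites, TTTTAT at 33.8% of both, and TGTANATA at 14.3% and 12.8%. ACACCC is part of the zipcode known from the Actb 3′UTR, TTTTAT is bound by CPEB and TGTANATA by Pumilio proteins. A match is a description and shows no binding.

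Genes that act beside the members were counted from a list of related genes. Of 32 other actin genes, 21 had tags, 106 in all, at 0.360% ± 0.196 (SD, n = 4). Abi1, a subunit of the WAVE regulatory complex with Cyfip2 and Wasf1, held 46 of them with 5, 4, 26 and 11 tags in replicates 1 to 4. It was the only gene of that list with at least 20 tags, and its share differed between replicates (adjusted p = 3.69e-10). Nckap1, of the same complex, had 4, 3, 2 and 1 tags.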

How the data were processed

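RNA tags crosslinked to GFP-tagged Pabpc1 were measured in 4 CA1 neuropil libraries. The authors deposited counts of tags per 1-base polyA site with a strand and a gene name, not normalized. Per the study's methods, sites were called with the CTK package, and the submitters' processing notes name cutadapt, Novoalign and mm10. How duplicate tags and tags matching several places were treated is not given in the sources used here. The name of the table points to tags overlapping sites found in Camk2a-expressing cells, so other 3′ ends may not be counted.

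Labels put all samples in 1 group. Every per-sample column was used. The 1 site with no gene name stayed in library totals, and 3 sites on unplaced scaffolds were not annotated. Shares are percentages of a replicate's tags, with 95% Wilson intervals. Sites with tags in more than 1 replicate are called recurrent. Sites were compared with GRCm38 and GENCODE vM21 (pysam 0.24.0, samtools 1.23.1), and copies were sought with blastn 2.17.0. Tests used scipy 1.17.1 and treated tags as independent molecules. They were checked on simulated data drawn under the same assumption, so the check does not cover copied tags or other spread between libraries. The rest used numpy 2.4.6, pandas 2.3.3 and matplotlib 3.10.9 under Python 3.11.15, and edgeR 4.0.16 (R 4.3.3) gave TMM factors for 1 alternative.

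Genes named were Actb, Tmsb4x and Ppp1r9b, the 25 members with the most tags, members with more than 1 recurrent site or past a threshold, and genes of the list of other actin genes with at least 20 tags; others were named after their values were seen. Members, lists and tests were chosen with earlier results of these data known. The separate values of 1 member and of 1 list are not reported here. Alternatives left out each replicate and changed the sites, denominator, gene names, tag minimum, window and hexamers.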

Additional observations from a re-analysis of the deposited data

Results flagged for a closer look

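In 4 of 34 results examined, a single replicate stood apart from the other 3 by more of the whole range than Dixon's 95% critical value allows, where chance gives about 1.7 such results. Replicate 1 held 16017 tags, far above the other totals. In replicate 2 crosslinkers and spine scaffolds took 0.590% of tags, mostly Ppp1r9b, and Pfn1 took 0.772%. Capza2 stood low in replicate 3 at 0.0168%, which is a single tag. The causes were not tested.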

How the results depend on the processing

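No paired analysis was possible because all samples belong to 1 group. Recurrent sites came to 40.8% to 52.2% of family sites when a replicate was left out (lowest without replicate 4), 28.6% were seen in at least 3 and 16.9% in all 4. Genes whose share differed between replicates numbered 84 of 112, 83 of 137, 108 of 158 and 98 of 145 without replicates 1 to 4. They numbered 215 of 533 (40.3%) at a minimum of 10 tags, 48 of 56 at 50 and 18 of 19 at 100. For family genes the counts were 3 of 4, 2 of 4, 5 of 6 and 4 of 5 without replicates 1 to 4. At these tag minimums they were 5 of 13, 3 of 4 and 0 of 1. Fewer genes reach the minimum with a replicate left out or at 50 and 100 tags. Differences in site usage were found in 6 of 23, 7 of 34, 6 of 27 and 4 of 29 genes without replicates 1 to 4. At a minimum of 50 tags they were found in 7 of 17. The distal share ran from 35.3% without replicate 2 to 72.7% without replicate 4. The polyA signal share was 22.1% for signals wholly upstream, 59.7% for AATAAA alone and 92.2% for 12 hexamers. On recurrent sites alone the share of Enah was 0.0121% and of Tmod2 0.00944%. For the comparisons 49 recomputed values stayed within the replicate spread (or 1.5 times, for counts) and 21 did not. For single genes 257 stayed and 5 did not, namely Enah, Tmod2, Ppp1r9b without replicate 2, and Tmsb4x under both other denominators. The 12 hexamers, the minimum of 100 tags and the distal share without Actb or Ppp1r9b were chosen after seeing the data. The cause of the other changes was not tested.

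With a median of 5 tags per member, differences between replicates of single genes below 10 tags were not tested at this depth, and 11 genes rest on 1 tag.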
